A study of Mus musculus with 10 samples.

Results

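The 9 genes described here mark or build the enteroendocrine lineage of the gut, and they were taken from a jejunal RNA-sequencing table as the rows named Chga, Chgb, Tph1, Neurog3, Neurod1, Insm1, Pax4, Pax6 and Isl1. The table holds 45707 rows, and 26289 of these genes were detected with a read in any mouse. Jejunal libraries were made from 5 control animals (Vil-Cre) and from 5 Vil-Cre:NDI1 animals, each mouse giving 1 library. NDI1 is the NADH dehydrogenase of Saccharomyces cerevisiae, and it was expressed from a lox-stop-lox cassette at ROSA26 after recombination by Villin-Cre, which acts in intestinal epithelial cells. Both genotypes carry Vil-Cre, so the NDI1 allele is the difference between them. All mice were male littermates 8 to 12 weeks old, fasted for 16 to 18 h and given water by gavage 1 h before the tissue was taken. The question for these genes is whether NDI1 in the epithelium altered the enteroendocrine programme in the absence of drug.

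Enteroendocrine cells are scattered hormone-producing cells of the gut epithelium. They arise from crypt progenitors in which escape from Notch signalling allows the basic helix-loop-helix factor Neurog3 to be expressed for a short time, and Neurog3 then starts a cascade that includes Neurod1, Insm1, Pax4, Pax6 and Isl1. Mature cells store peptide hormones in dense-core granules built with the chromogranins Chga and Chgb. The enterochromaffin subtype also makes serotonin through Tph1, the rate-limiting tryptophan hydroxylase of the gut, and supplies most of the serotonin of the body.

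The level of each gene is given as a normalized count, the reads assigned to the gene divided by the size factor of the library. Genotypes were compared with limma on log2(normalized count + 1) over the 14301 genes that reached 10 normalized counts in 5 or more of the mice. The added 1 shrinks fold changes of weakly expressed genes. For each member, an exact permutation test (two-sided, every split of the mice into 5 and 5) was run as well, and its smallest p is 0.00794. Each library held between 10145705 and 12371530 reads on genes. NDI1 had 0 reads in 4 Vil-Cre libraries and 1 read in the other, and 1002 to 2659 reads in Vil-Cre:NDI1 libraries, so each library matched its label. Apoa4, an apolipoprotein of small intestinal enterocytes, stood at 96626 ± 50865 normalized counts in Vil-Cre mice (SD, n = 5). Smooth muscle and enteric neuron transcripts were also present, so the samples hold more than epithelium.

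No difference between genotypes was detected for any of the 9 genes. Of the 7 that passed the filter, 0 were called at an adjusted p under 0.05 and 0 had an unadjusted p under 0.05 with limma, and edgeR and DESeq2 on the reads also called 0. Across all genes tested, limma called 1 gene, the NDI1 transgene, or 0.00699%, and 4.24% had an unadjusted p under 0.05. With edgeR the share called was also 0.00699%. With DESeq2 it was 0.118%, or 31 of the 26289 genes with a read, which include genes given no adjusted p. On the 8 libraries without Vil-Cre 3 and Vil-Cre 4, DESeq2 called 1.08% of the genes with a read and 0 members. The fitted log2 fold change was above 0 for 2 of the 7 and below 0 for 5, with a median of -0.08 against 0.0052 over all genes tested, although the sign of Chgb, Tph1, Neurod1, Insm1 and Pax6 turned under at least 1 other setting. In all 9 genes, the values of the 5 Vil-Cre:NDI1 mice overlapped those of the 5 Vil-Cre mice, while the groups did not overlap in 0.699% of all genes tested. Neurog3 and Pax4 did not pass the filter and have a permutation test only. In bulk tissue, fewer cells of a type and less RNA per cell cannot be told apart.

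**Figure D1:**
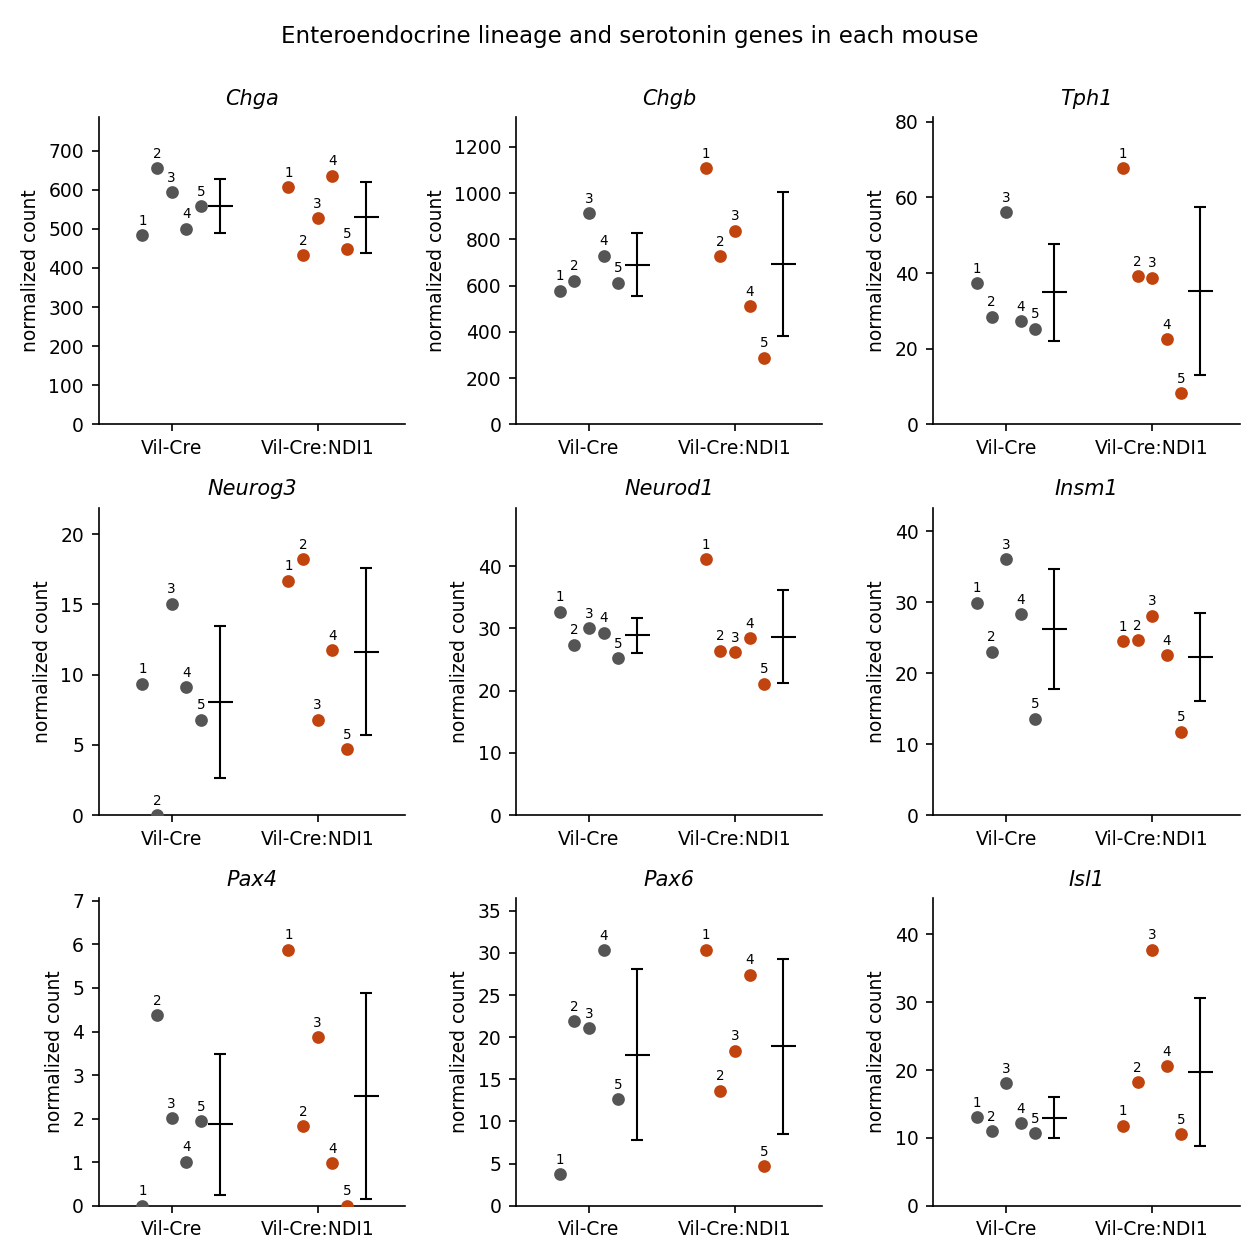
Normalized count (vertical axis, from 0) of each of the 9 genes in each mouse, with Vil-Cre in grey and Vil-Cre:NDI1 in orange; numbers are replicate numbers, and bars show the mean and SD of 5 mice. The groups overlap in every panel, and Vil-Cre:NDI1 5 is the lowest mouse, or level with the lowest, for 6 genes.

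Levels were compared between genes per kb of annotated exon, with reads of all transcripts pooled. The chromogranins stood far above the rest, with a mean of 253 normalized counts per kb for Chgb and 197 for Chga over the 10 mice. Chgb was above Chga in 7 of 10 mice, and their ranges overlapped. The next gene, Neurod1, was at 10.6 per kb, and Chga was 18.7 times higher on average and higher in 10 of 10 mice. Insm1 (7.82 per kb), Neurog3 (5.88), Tph1 (5.68) and Isl1 (4.14) followed, and each overlapped its neighbour in this order. Pax6 and Pax4 were lowest at 1.58 and 1.51 per kb and overlapped each other, while Isl1 was above Pax6 in 10 of 10 mice. The exon length used for Pax6, 11694 bases, joins all its annotated transcripts, so a level per kb is a lower estimate for a gene of which short transcripts are used.

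**Figure D2:**
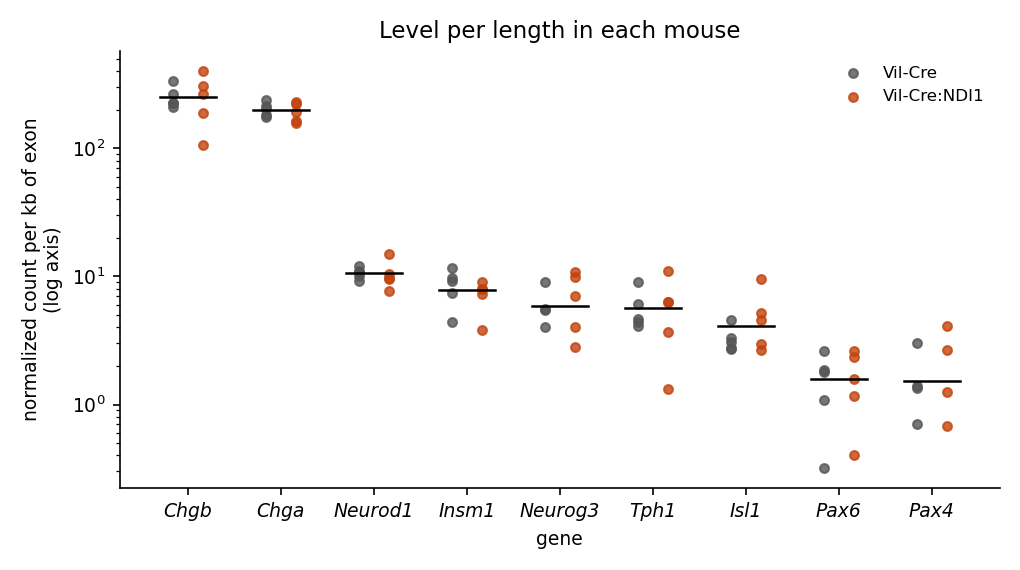
Normalized count per kb of exon (log axis) of the 9 genes in order of their mean, which is the black line; each point is a mouse, with Vil-Cre in grey and Vil-Cre:NDI1 in orange, and mice at 0 for Pax4 (2) or Neurog3 (1) cannot be drawn. Chgb and Chga, at means of 253 and 197 per kb, lie above every value of the other 7 genes.

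Chga encodes chromogranin A, an acidic protein that drives granule formation and is the common marker of the whole lineage (ENSMUSG00000021194, GRCm38 chromosome 12, 102554969 to 102565028, plus strand). It had 484, 654, 594, 500.5 and 558 normalized counts in Vil-Cre mice 1 to 5. In Vil-Cre:NDI1 mice it had 606, 433, 527, 636 and 449.6. The lowest and the highest mouse differed 1.51 times and the genotypes lay across the same range. The log2 fold change was -0.08 (standard error 0.13, 95% confidence interval -0.37 to 0.20, adjusted p = 0.998 with limma), and the exact permutation p was 0.556. Chga had the smallest standard error of the members, and its interval, like those of Chgb, Neurod1 and Insm1, lay within 2-fold in both directions.

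Chgb encodes chromogranin B, which shares the granules with chromogranin A (ENSMUSG00000027350, chromosome 2, 132781278 to 132795079, plus strand). Vil-Cre mice had 578, 620.5, 914, 729 and 613 normalized counts. The Vil-Cre:NDI1 mice had 1107, 728, 837, 512 and 289. The highest and the lowest of all 10 mice were both Vil-Cre:NDI1 mice, and the means of 691 ± 137 and 694 ± 312 (SD, n = 5 each) were nearly equal. The log2 fold change was -0.11 (standard error 0.30, 95% confidence interval -0.77 to 0.55, adjusted p = 0.998 with limma), and the exact permutation p was 0.786. Without Vil-Cre:NDI1 5, the lowest mouse, the log2 fold change was 0.17, so the sign turned without that animal.

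Tph1 encodes the enzyme that hydroxylates tryptophan, the committed step to serotonin outside the brain (ENSMUSG00000040046, chromosome 7, 46644641 to 46672537, minus strand). Vil-Cre mice had 37.4, 28.5, 56.1, 27.3 and 25.3 normalized counts. The values were 67.6, 39.2, 38.7, 22.5 and 8.22 in Vil-Cre:NDI1 mice. The highest mouse had 8.23 times the count of the lowest, and both were again Vil-Cre:NDI1 mice. The log2 fold change was -0.20 (standard error 0.47, 95% confidence interval -1.24 to 0.84, adjusted p = 0.998 with limma), and the exact permutation p was 0.754. Without Vil-Cre:NDI1 5 it was 0.22, and a 2-fold fall lies inside the interval with all mice.

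Sequences before RefSeq starts of Chga, Tph1, Chgb, Pax6 and Isl1 are shown because chromogranin promoters are known for a cyclic-AMP response element (CRE), the site of the factor CREB, and because Chgb and Tph1 had the highest correlation of the 36 pairs of members, one that did not pass after adjustment (adjusted exact permutation p = 0.0588 for r). RefSeq sequence on GRCm38.p6 was found for 7 of the 9 genes and searched over 250 bases before each annotated start, on both strands. The 250 bases before the Chga start (chr12:102554691-102554940, plus strand) read as follows, with the CRE core in capitals.
Chga: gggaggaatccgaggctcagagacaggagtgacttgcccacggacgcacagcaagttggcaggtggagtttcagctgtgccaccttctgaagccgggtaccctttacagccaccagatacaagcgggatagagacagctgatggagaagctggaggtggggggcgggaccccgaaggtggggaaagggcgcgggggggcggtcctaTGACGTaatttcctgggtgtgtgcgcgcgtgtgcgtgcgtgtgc
The 250 bases before the downstream start of Tph1 (chr7:46667378-46667627, minus strand) hold no such core and are given in lower case throughout.
Tph1: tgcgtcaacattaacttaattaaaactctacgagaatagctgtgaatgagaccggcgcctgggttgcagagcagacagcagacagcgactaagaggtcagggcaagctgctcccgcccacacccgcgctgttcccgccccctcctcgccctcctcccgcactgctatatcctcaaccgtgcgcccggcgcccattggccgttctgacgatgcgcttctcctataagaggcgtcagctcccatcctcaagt
Stretches of up to 30 bases around the core in the other genes follow, at chr2:132781559-132781588 (plus) for Chgb, chr2:105668809-105668838 (plus) for Pax6 and chr13:116309731-116309758 (minus) for Isl1. The Chgb stretch lies before its RefSeq start at 132781642 but inside the gene as GENCODE annotates it from 132781278, where all 250 bases of the window are exon.
Chgb: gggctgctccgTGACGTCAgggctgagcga
Pax6: tctggccgccgTGACGTCAtccgcgcccgg
Isl1: cggcgctcgccTGACGTccccgcgcgct

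The CRE core TGACGT lay 44 bases before the RefSeq start in Chga, 72 in Chgb, 76 in Pax6 and 59 in Isl1. It occurred in 6.47% of the 32851 upstream windows of all genes. The full palindrome TGACGTCA, which contains the core, occurred in Chgb and Pax6 and in 1.55% of all windows. The window of a further RefSeq start of Pax6 (105682463), which is exon sequence over all its 250 bases, also had the core. Windows of Tph1 (at 2 starts), Neurog3 and Neurod1 held neither. The E-box form CAGATG, which basic helix-loop-helix factors can bind, and the TATA form TATAAA were found in the windows of 0 of the 7 genes, against 14.4% and 12.4% of all windows. These matches describe the letters only.

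Neurog3, the master factor of the endocrine progenitor, was near the limit of detection (ENSMUSG00000044312, chromosome 10, 62133090 to 62134763, plus strand). Vil-Cre mice had 9.34, 0, 15.0, 9.10 and 6.8 normalized counts. Vil-Cre:NDI1 mice had 16.7, 18.2, 6.78, 11.8 and 4.70. The 2 highest mice were Vil-Cre:NDI1 mice, but the next lowest after the mouse at 0 was one too. The difference of log2(value + 1) was 0.78 (exact permutation test, p = 0.421, n = 5 each), from 101 reads in all libraries together. Exons of Neurog3 share bases with Fam241b on the other strand (78.3 to 139 normalized counts), and the strand setting of the counting is not given in the sources used here, so the origin of these few reads is uncertain.

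Neurod1, a target of Neurog3 that promotes cell cycle exit and differentiation, was the steadiest lineage factor (ENSMUSG00000034701, chromosome 2, 79452521 to 79456751, minus strand). Vil-Cre mice had 32.7, 27.4, 30.1, 29.3 and 25.3 normalized counts. Vil-Cre:NDI1 mice had 41.2, 26.4, 26.1, 28.4 and 21.1. Its coefficient of variation over the 10 mice was 18.5%, beside the 18.6% that counting error alone gives at its reads. Its log2 fold change was -0.04 (standard error 0.22, 95% confidence interval -0.52 to 0.44, adjusted p = 0.998 with limma). Neurod1 shares exon bases with Cerkl on the same strand, which had 0 to 35.4 normalized counts, so the assignment of its reads between the pair is uncertain.

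Insm1, a zinc-finger repressor that acts beside Neurod1 (ENSMUSG00000068154, chromosome 2, 146221921 to 146225020, plus strand), had 29.9, 23.0, 36.1, 28.3 and 13.6 normalized counts in Vil-Cre mice. Counts in Vil-Cre:NDI1 mice were 24.5, 24.6, 28.1, 22.5 and 11.7. Mouse 5 of each genotype was low, and the other 8 mice ran from 22.5 to 36.1. Its log2 fold change was -0.21 (standard error 0.32, 95% confidence interval -0.91 to 0.49, adjusted p = 0.998 with limma).

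The paired-box factors Pax4 and Pax6 act in the choice between hormone cell types, Pax4 early and Pax6 also in the activation of hormone genes. Pax4 (ENSMUSG00000029706, chromosome 6, 28442334 to 28449353, minus strand) had 22 reads in all, with 0 in Vil-Cre 1 and in Vil-Cre:NDI1 5 and 5.88 normalized counts at most. No difference could be detected at this depth (exact permutation test, p = 0.810, n = 5 each). Pax6 (ENSMUSG00000027168, chromosome 2, 105668900 to 105697364, plus strand) had 3.74, 21.9, 21.0, 30.3 and 12.6 normalized counts in Vil-Cre mice. In Vil-Cre:NDI1 mice they were 30.4, 13.7, 18.4, 27.4 and 4.70. Each genotype held a mouse with under 5 and a mouse with over 30. The log2 fold change of Pax6 was 0.10 (standard error 0.59, 95% confidence interval -1.18 to 1.38, adjusted p = 0.998 with limma), so changes of 2-fold in either direction lie inside the interval.

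Isl1, a LIM-homeodomain factor of maturing hormone cells that enteric neurons can also express, had the largest fitted difference of the 7 tested (ENSMUSG00000042258, chromosome 13, 116298281 to 116309689, minus strand). Vil-Cre mice had 13.1, 10.9, 18, 12.1 and 10.7 normalized counts. Vil-Cre:NDI1 mice had 11.8, 18.2, 37.8, 20.6 and 10.6. Only 3 Vil-Cre:NDI1 mice lay above the highest control, and Vil-Cre:NDI1 3 alone stood well clear of the other 9. Its log2 fold change was 0.45 (standard error 0.36, 95% confidence interval -0.32 to 1.23, adjusted p = 0.998 with limma), and the exact permutation p was 0.262.

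**Figure D3:**
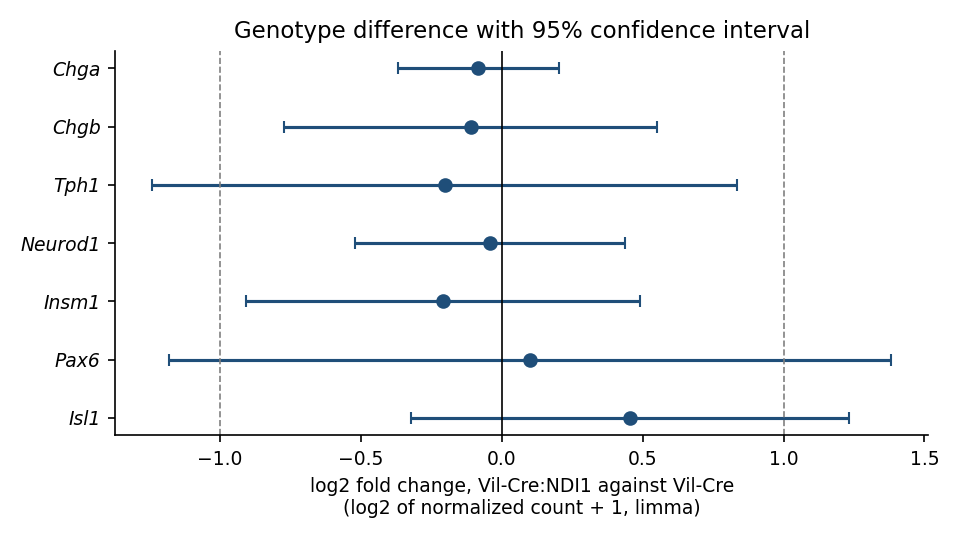
Log2 fold change of Vil-Cre:NDI1 against Vil-Cre on log2(normalized count + 1) for the 7 genes that passed the filter; points are limma estimates, bars are 95% confidence intervals, and dashed lines mark 2-fold. All 7 intervals cross 0, from the narrowest for Chga (-0.37 to 0.20) to the widest for Pax6 (-1.18 to 1.38).

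In each of the 7 genes tested, the SD between mice within genotypes, pooled over both, was larger than the log2 fold change between genotypes. The coefficient of variation of Chgb over the 10 mice was 32.8%, where counting error alone gives 3.78%. For Chga, at a similar level, the values were 14.3% and 4.28%. By genotype, the coefficient of variation of Chgb was 19.8% in Vil-Cre and 44.9% in Vil-Cre:NDI1 mice. That of Chga was 12.5% and 17.1%. On the log2 scale, the pooled SD of Chgb was 0.56, while the median over the 2180 genes within 1.5-fold of its level was 0.18. The same values were 0.22 and 0.19 for Chga. Tph1 had an SD of 0.84 beside a median of 0.51 in genes of its level, while Neurod1 had 0.26 beside 0.53. The SD of Chgb was thus near the median of genes at the level of Tph1, although it was counted in 246 to 1129 reads per library.

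The mice at both ends were the same for several genes. Vil-Cre:NDI1 1 was the highest of the 10 mice for Chgb, Tph1, Neurod1, Pax4 and Pax6, and Vil-Cre:NDI1 5 was the lowest, or level with the lowest, for Chgb, Tph1, Neurod1, Insm1, Pax4 and Isl1. Other transcripts moved in these libraries too, and the size factor of Vil-Cre:NDI1 5 was the lowest of the 10, at 0.852. In Vil-Cre:NDI1 5, the median of the crypt and proliferation markers was 0.36 below the genotype mean on the log2 scale, with 9 of 10 lower. The goblet markers had a median of 0.27 below, with 6 of 6 lower, the smooth muscle markers 0.41 above with 9 of 9 higher, and the enteric neuron markers 0.38 above. Gut peptide hormones had a median of 0.37 below, with 7 of 9 lower. The enterocyte markers had a median of 0.17 above, with 2 of 11 lower. In Vil-Cre:NDI1 1 the smooth muscle markers were 0.49 and the enteric neuron markers 0.55 below. Both lists were lower still in Vil-Cre 4, at 0.75 and 0.61 below. That mouse was the highest for 0 members and the lowest for 0. The summed smooth muscle markers ran from 13269.6 to 28089 normalized counts in Vil-Cre and from 15325 to 27679 in Vil-Cre:NDI1 libraries. The part of these markers in the values of the enteroendocrine genes was not tested.

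Chgb and Tph1 gave the highest correlation across mice. After subtraction of the genotype means, Pearson's r of their log2(value + 1) over the 10 mice was 0.95 (exact permutation test within genotypes, p = 0.00299, 0.0588 after Benjamini-Hochberg adjustment over the 36 pairs of members). Spearman's rho was 0.88 (exact permutation p = 0.00667, adjusted 0.1275). Without Vil-Cre:NDI1 1 and Vil-Cre:NDI1 5, the farthest mice, r was 0.79. The values of a mouse share its library and size factor. The normalized count of Chgb was 15.5 to 35.1 times that of Tph1, with no genotype difference detected in this ratio (exact permutation p = 0.659). Among the 14300 other genes tested, Tph1 ranked 3 in likeness to Chgb, and Chgb ranked 2 in likeness to Tph1.

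Chga had lower correlations with both over all 10 mice. Its r with Chgb was 0.33 (rho 0.14, exact permutation p = 0.475 for r) and with Tph1 0.30 (rho 0.091, p = 0.531), each with an adjusted p over 0.6. Without Vil-Cre:NDI1 2 and Vil-Cre:NDI1 4, the farthest mice for Chga, these were 0.64 and 0.60, so the low values rest on those mice. The ratio of Chgb to Chga ran from 0.642 in Vil-Cre:NDI1 5 to 1.83 in Vil-Cre:NDI1 1, with no genotype difference detected (exact permutation p = 0.944). The chromogranins gave different orders of the same mice.

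**Figure D4:**
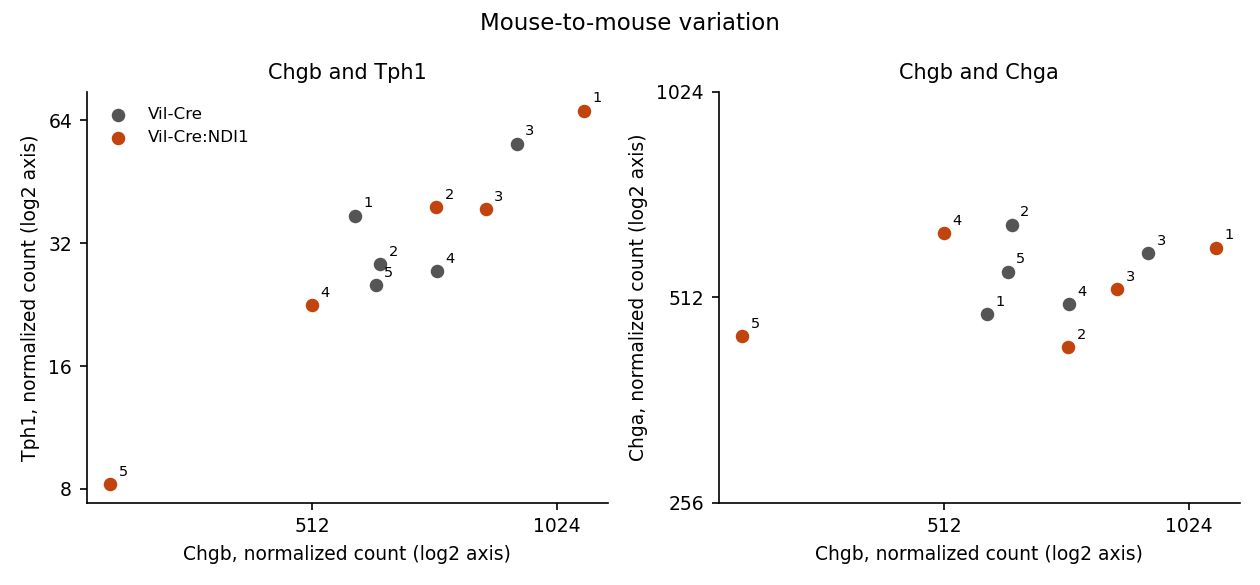
Normalized counts of Tph1 (left) and Chga (right) against those of Chgb on log2 axes, 1 point per mouse with its replicate number; Vil-Cre is grey and Vil-Cre:NDI1 orange. Tph1 climbs with Chgb from Vil-Cre:NDI1 5 (289 and 8.22) to Vil-Cre:NDI1 1 (1107 and 67.6), while Chga stays between 433 and 654.

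Over all 36 pairs of members, 33 correlations were above 0 and 13 were above 0.5, and 0 passed the adjusted threshold for r or rho. Tph1 and Insm1 had an r of 0.77 (exact permutation p = 0.00326, adjusted 0.0588), which was 0.72 without the 2 farthest mice. Tph1 and Neurod1 had an r of 0.80, which fell to 0.24 without Vil-Cre:NDI1 1 and Vil-Cre:NDI1 5, so that relation rests on those mice. The same holds for Chgb and Neurod1, at 0.72 with all mice and -0.14 without these 2. Neurog3 went with no member beyond an r of 0.47, and its r with Chga was -0.26. Its rho was highest with Tph1 (0.66), Insm1 (0.64) and Neurod1 (0.56). With Pax4, Pax6 and Chga its rho was -0.012, -0.025 and -0.28. Vil-Cre 2 had 0 reads of Neurog3.

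**Figure D5:**
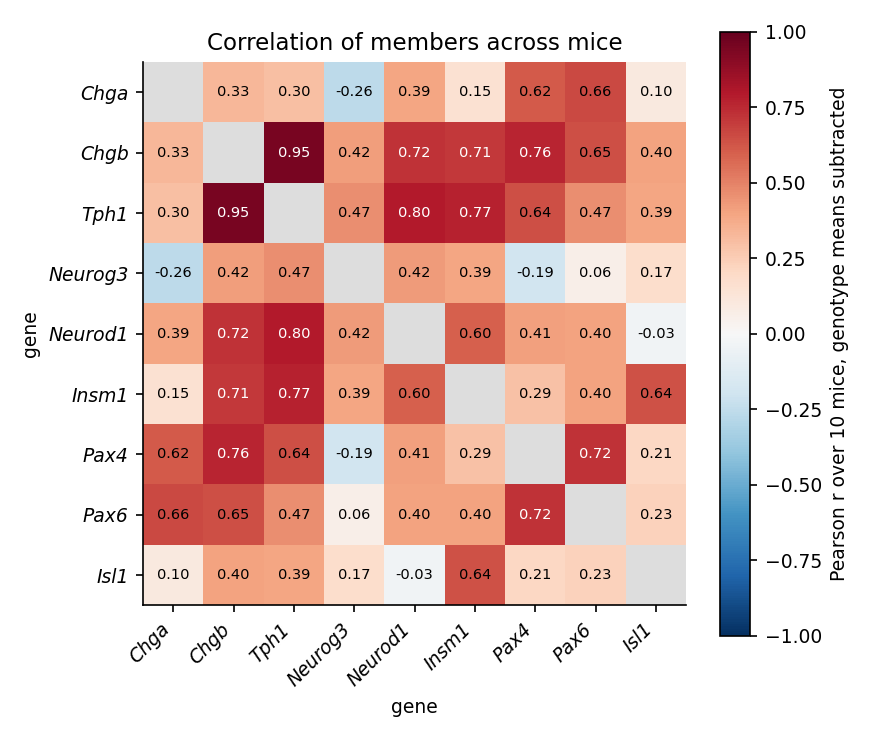
Pearson's r between members over 10 mice, after subtraction of genotype means from log2(normalized count + 1); red is above 0 and blue below. The Chgb and Tph1 pair is the darkest at 0.95, and Chga has an r above 0.5 with Pax4 and Pax6 but not with the other 6 genes.

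Genes of the same pathways were read from lists of related genes. For these lists a call is an adjusted p under 0.05 with limma, and DESeq2 and edgeR on the reads of all 10 libraries also called 0 genes of the 6 pathway lists. These counts stand beside the 4.24% of all genes tested that had an unadjusted p under 0.05, and the 7319 of 14301 fitted above 0. In the serotonin pathway, 14 of 15 listed genes for its production, storage and clearance were tested and 0 were called (2 at an unadjusted p under 0.05), with 10 fitted above 0 and 4 below. This split was 8 to 6 with DESeq2, edgeR or equal library totals, and 7 to 7 without Vil-Cre 5. The median log2 fold change was 0.11. Tph2, the tryptophan hydroxylase of neurons, had 0 reads in all 10 mice, which allows up to 3 reads per library, so the hydroxylase transcripts measured were those of Tph1. Maoa, a monoamine oxidase that degrades serotonin and the most abundant gene of the list, had 7462 ± 787 normalized counts in Vil-Cre and 9030 ± 1331 in Vil-Cre:NDI1 mice (SD, n = 5 each, log2 fold change 0.27, adjusted p = 0.998 with limma). Maob, the related oxidase, had the smallest p of the list, with 1612 ± 356 and 2158 ± 422 normalized counts (log2 fold change 0.43, adjusted p = 0.998 with limma). All 11 enterocyte markers were also fitted above 0, with a median of 0.22 and 0 called, and their part in the oxidase values was not tested.

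The decarboxylase and the transporters of the pathway were likewise not called. Ddc, which converts the product of Tph1 into serotonin and is also made by enterocytes, had a log2 fold change of 0.0092. The vesicular transporter Slc18a1 had 115 ± 33.2 and 121 ± 17.8 normalized counts (SD, n = 5 each), and the reuptake transporter Slc6a4 1115 ± 165 and 1234 ± 74.5. Slc18a1 went with Chgb at an r of 0.58 and Slc6a4 at -0.17 over the 10 mice. Over the 14 tested genes for serotonin production, storage and clearance, the median r with Chgb was -0.14, with 5 above 0 and 0.58 the highest. Of 11 serotonin receptors, only Htr3a and Htr2b passed the filter, and 0 were called (0 at an unadjusted p under 0.05). Htr3a, the ligand-gated channel of neurons, had the highest mean, with 33.9 ± 16.5 and 25.6 ± 7.17 normalized counts and a log2 fold change of -0.32 (adjusted p = 0.998 with limma). Htr2b, a G-protein-coupled receptor, had the smaller p, at a log2 fold change of 0.40 (adjusted p = 0.998).

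Of 17 other transcription factors of the lineage, 12 were tested and 0 were called (2 at an unadjusted p under 0.05), with 2 fitted above 0, 10 below and a median of -0.15. Id3, an inhibitor of helix-loop-helix factors and the most abundant of the list, had 720.4 ± 112 and 686 ± 149 normalized counts (SD, n = 5 each). Sox4, which acts in early endocrine progenitors, had the smallest p, with 286 ± 50.4 and 225 ± 18.2 (log2 fold change -0.33, adjusted p = 0.998 with limma). Of 12 genes of Notch control of secretory fate, 11 were tested and 0 were called (2 at an unadjusted p under 0.05), with 10 fitted below 0 and a median of -0.21. Of other secretory cells, all 6 tuft cell markers (median -0.50) and all 6 goblet cell markers (median -0.21) were also fitted below 0 with 0 called, and their part in these lists was not tested. The ligand Dll1, highest in the list, had 527 ± 110.4 and 516 ± 68.1 normalized counts. The receptor Notch2 had the smallest p, with 200.3 ± 37.3 and 151 ± 14.9 (log2 fold change -0.39, adjusted p = 0.998 with limma).

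Of 20 genes of dense-core granules and prohormone processing, 18 were tested and 0 were called (0 at an unadjusted p under 0.05), with 8 fitted above 0 and 10 below. Carboxypeptidase E (Cpe), which trims processed peptides, was highest with 1061 ± 255 and 903 ± 170.2 normalized counts (log2 fold change -0.22, adjusted p = 0.998 with limma). Rph3al, a Rab effector in granule release, had the smallest p at a log2 fold change of 0.27 (adjusted p = 0.998). Of 10 peptide hormones, 9 were tested and 0 were called (0 at an unadjusted p under 0.05), with 4 fitted above 0 and 5 below. Gip, the incretin of K cells, was highest with 373 ± 165 and 424 ± 99.2 normalized counts, and Nts, which encodes neurotensin, had the smallest p at a log2 fold change of -0.28 (adjusted p = 0.998).

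Within the granule list, the prohormone convertase Pcsk1 varied most like Chgb, Tph1 and Insm1. It was the highest of 18 genes, whose median r was -0.07 with Chgb (6 above 0), -0.03 with Tph1 (8 above 0) and -0.05 with Insm1 (8 above 0). The r of Pcsk1 over the 10 mice was 0.88 with Chgb and with Tph1 and 0.89 with Insm1, against 0.37 with Chga. Pcsk1 ran from 32.9 normalized counts in Vil-Cre:NDI1 5 to 110.8 in another Vil-Cre:NDI1 mouse. Cholecystokinin (Cck) had an r of 0.75 with Chgb, whereas secretin (Sct) had -0.11 with Chgb and 0.81 with Chga. The 6 goblet cell markers all had an r above 0 with Chga, with a median of 0.59 and Tff3, a mucus peptide, highest at 0.81. With Chgb, 4 of these 6 were above 0, with a median of 0.11, and with Pax6 5 were, with a median of 0.50. All 10 crypt and proliferation markers also had an r above 0 with Chga, with a median of 0.25, while 1 of 11 enterocyte markers did. Of the 9 hormones tested, 6 had an r above 0 with Chgb and 7 with Chga. These values describe 10 mice and carry no test.

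Cell types other than enteroendocrine cells can express these genes, and their markers were read in the same libraries. Mast cells of the mouse make serotonin through Tph1. In these libraries, 7 of 11 listed mast cell markers had no library with more than 3 reads, and the mast cell protease Cpa3 did not exceed 1.09 normalized counts in any mouse. Kit, which other cells of the gut wall also express, was the most abundant and had the smallest p of this list (log2 fold change -0.62, adjusted p = 0.998 with limma), and its r with Tph1 was 0.15. The other of the 2 mast cell markers tested had an r of 0.11 with Tph1, and both had an r above 0 with Chgb. The part of mast cells in the Tph1 reads was not tested. Pancreatic islets share most of the lineage factors, and 7 of 13 listed pancreas markers, Ins1 and Ins2 among them, had 0 reads in all mice. In all, 10 of the 13 had no library with more than 3 reads. Cela1, the most abundant, was the only 1 tested. Its r ran from -0.34 with Isl1 to 0.57 with Pax6, and was 0.48 with Chgb and 0.35 with Tph1. The part of pancreas in these values was not tested. Enteric neurons also express Chgb, and 15 of 18 of their markers were tested. Only 3 of these 15 had an r above 0 with Chgb, with a median of -0.29. All 9 smooth muscle markers had an r below 0 with Chgb, with a median of -0.55. The 3 enteric glia markers tested all had an r above 0 with Chgb, with a median of 0.29. With Isl1, 9 of the 15 neuron markers had an r above 0, with a median of 0.04. The part of neurons, glia and muscle in the Chgb and Isl1 reads was not tested. Summed over the list, the neuron markers gave 661 to 1227 normalized counts in Vil-Cre libraries and 724 to 1171 in Vil-Cre:NDI1 libraries.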

How the data were processed

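Jejunal RNA of 10 mice, 5 of each genotype, was sequenced. Trimmed reads were aligned by the authors with STAR (GRCm38 plus the NDI1 sequence), quantified per gene with Salmon and scaled by DESeq2 size factors. The deposited unit is therefore a signal (normalized counts), not raw reads. Values above 0 were multiples of 1 read's value in 100% of cases, and these reads went into DESeq2 and edgeR. The tolerance was 0.001 reads up to 10 reads and grew in proportion to the count above that. The most abundant genes therefore could not fail. The check for whole reads could not decide for Vil-Cre 3 and Vil-Cre 4, so both tools were also run on the other 8 libraries. No per-sample column was left unused.

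Genotypes were compared with limma 3.58.1 in R 4.3.3 (eBayes with a trend) on log2(value + 1), with Benjamini-Hochberg adjustment over all 14301 genes tested and a threshold of 0.05. Alternatives were pseudocounts of 0.1 and 8, no filter, a filter at 50, equal library totals, TMM, a replicate block, DESeq2 1.42.0, edgeR 4.0.16 and leaving out each mouse. Correlations between members used all 14400 permutations within genotypes. Likeness to other genes was Pearson's r over 10 mice without genotype means, and is a description. The text names NDI1, the 9 members, the 3 genes most like each tested member, and from each pathway list any gene called, the most abundant gene and the gene with the smallest p. Pcsk1, Cck, Sct, Tff3, Fabp2, Slc18a1, Slc6a4, Ddc, Cpa3, Tph2 and the cell type markers were named after their values were seen. The members and lists were chosen with earlier results of these data known. Positions are from GENCODE M21. Between libraries of a genotype, chi-square per gene was 13.0 to 62.8, far above sampling noise, and none was treated as a duplicate. Each mouse is a separate animal, and the labels give no batch. Intervals cover the spread between mice, and the limit of 3 reads covers counting error only. The limma, edgeR and DESeq2 steps were tested on simulated data.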

Additional observations from a re-analysis of the deposited data

How the results depend on the processing

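None of the 7 genes tested was called under any setting in which it was tested, on 10, 9 or 8 libraries. With the filter at 50, only Chga and Chgb of the members were tested. Neurog3 and Pax4 did not pass the filter and were not tested with TMM, edgeR, the block or the filter at 50, and have no p with a mouse left out. With no filter their adjusted p from limma was 0.867 and 0.968, and DESeq2 gave Neurog3 0.988 and, on 8 libraries, 0.625. The lowest adjusted p of the 7 tested genes over all settings was 0.584, for Isl1. The number of genes called among all genes was 1 in the limma test, 2 with a filter at 50, 31 with DESeq2 (16 higher, 15 lower) and 276 with DESeq2 on 8 libraries (152 higher, 124 lower), while edgeR gave 1. Without 1 mouse it ran from 1 to 3, with 2 without Vil-Cre:NDI1 1 and 3 without Vil-Cre:NDI1 5, and the count of members called ran from 0 to 0. The sign of the log2 fold change was not fixed for several genes. Chgb was 0.0079 with DESeq2, 0.20 with DESeq2 and 0.19 with edgeR on 8 libraries. Tph1 was 0.020 with DESeq2, 0.012 with edgeR, and 0.22 and 0.21 with these tools on 8 libraries. With DESeq2 on 8 libraries, Neurod1 was 0.013 and Insm1 0.016. With 1 mouse left out, the log2 fold change ran from -0.15 to -0.014 for Chga, -0.31 to 0.17 for Chgb, -0.50 to 0.22 for Tph1, -0.18 to 0.055 for Neurod1, -0.42 to -0.0051 for Insm1, -0.34 to 0.50 for Pax6 and 0.19 to 0.63 for Isl1. The difference ran from 0.092 to 1.09 for Neurog3 and from -0.13 to 0.57 for Pax4. The cause of these changes was not tested. Equal library totals moved the median of all genes to -0.06 from 0.0052. The replicate numbers did not pair the mice, since same-numbered mice correlated at -0.12 to 0.14. With the number as a replicate block, 1 gene and 0 members were called. In the lists, DESeq2 on 8 libraries called Notch2, Gip and the cell type markers Kit, Fabp1, Dclk1 and Clca1, and no other setting called a gene. Depth limits Pax4 and Neurog3 most, with 22 and 101 reads over all libraries. DESeq2 gave no adjusted p for Pax4.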

Other observations

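The genes whose variation was most like that of Chgb over the 10 mice, out of 14300, were A830036E02Rik (r = 0.97), 1110008L16Rik (0.96) and Tph1 (0.95), and for Tph1 they were Gdap10 (0.95), Chgb and A830036E02Rik (0.95). For Chga they were 1700030K09Rik (0.94), Fam53c (0.93) and Rpl7l1 (0.89). The lists of Chgb and Chga shared no gene. For Neurod1 they were Stard13 (0.96), Crcp (0.94) and Smchd1 (0.94), for Insm1 Gm29253 (0.95), Ndufa9 (0.94) and Mpzl1 (0.93), and for Isl1 Ift81 (0.96), Zfp46 (0.92) and Mrps34 (0.89). For Pax6 they were Ndufaf7 (0.97), Fcgbp (0.96), an abundant mucus protein of goblet cells, and 1810032O08Rik (0.95). These are the highest of 14300 values from 10 mice, so no p is given.

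Of the listed genes, Fabp2, the fatty acid binding protein of enterocytes, had the lowest r with Chgb (-0.93) and Tph1 (-0.84), and -0.025 with Chga. The 11 enterocyte markers did not share this value. Their median r was -0.15 with Chgb (4 above 0, highest 0.60) and -0.11 with Tph1 (4 above 0, highest 0.54). The lowest came from other lists for the other members tested. Maoa had -0.70 with Chgb. Fabp2 was singled out after its value was seen.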
